A study of Mus musculus with 6 samples.

Results

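The 42 genes described here encode secreted matrix glycoproteins, proteoglycans of the matrix and the cell surface, binding proteins for insulin-like growth factors, and ADAMTS proteases. They were taken by symbol from a table of 49671 genes, and all 42 were found. RNA was sequenced from 6 libraries of LKPR EPCAM+ cells, an epithelial line grown from skin squamous cell carcinoma of the mouse. Every group carries p53fl/fl, KrasLSL-G12D and Lgr5CreER alleles and a Rosa26-YFP+/+ reporter, with Cre driven from the locus of the stem cell gene Lgr5. The groups, with 2 libraries each, are Ntn1-KD cells, in which a lentiviral vector knocks down the gene of the secreted ligand netrin-1, Unc5b-KD cells, in which a netrin receptor gene is knocked down, and empty-vector cells. After 6 days, living cells positive for YFP and EPCAM were sorted, so cells without EPCAM were not measured in any group. All groups derive from 1 line, and the labels do not say whether libraries of one group are separate cultures, so p-values reflect library-to-library variation alone, possibly technical. The number of hairpins per target is not given in the sources used here.

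Extracellular matrix is built from collagens together with glycoproteins that link fibres and cells, and proteoglycans, whose long sugar chains bind water and growth factors. Fibronectin, tenascin and thrombospondins bind integrins and other surface receptors, fibrillin microfibrils hold TGF-beta in latent complexes through the LTBP proteins, and nidogen, perlecan and agrin belong to basement membranes. ADAMTS enzymes are secreted metalloproteases. Some, such as ADAMTS1, ADAMTS4, ADAMTS5 and ADAMTS9, cut the large chondroitin sulphate proteoglycans aggrecan and versican, and ADAMTS14 belongs to the branch that trims procollagen. In skin tumours, matrix proteins come from stromal fibroblasts and also from the carcinoma cells themselves, which are the only cells sequenced here.

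Values were scaled by the authors to a sum of 20000000 per library and are given in that unit. The depth, estimated from the spacing of low values, was 6540000 to 10180000 reads per library, and 3 reads correspond to 5.9 to 9.17 in the scaled unit. The targeted genes were lower under their own label: Ntn1 was at 359 and 431 in Ntn1-KD cells, 1319 and 771 in Unc5b-KD cells and 1566 and 2588 in empty-vector cells, and Unc5b was at 419 and 352 in Unc5b-KD cells, 2311 and 2382 in Ntn1-KD cells and 1527 and 1573 in empty-vector cells. The epithelial label was borne out by Epcam at 8032 to 10127 and Krt8 at 15208 to 20874 over the 6 libraries. Several fibroblast markers were near the floor, with Dcn at 0 to 4, Lum at 0 to 2 and Thy1 at 0 to 3, and 5 other markers between 0 and 193. Twist2 was the exception and set the summed level of the 9 fibroblast markers, at 549 and 654 in Ntn1-KD cells, 887 and 477 in Unc5b-KD cells and 1347 and 1484 in empty-vector cells. Without Twist2 the sums were 311 and 211, 237 and 139, and 136 and 137 in the same order of groups. Of the immune markers, Csf1r was at 347 and 443 in Ntn1-KD cells, 1569 and 1003 in Unc5b-KD cells and 1213 and 1511 in empty-vector cells, and the others were at 0 to 5, with Lyz2 and Adgre1 at 0 in every library. The endothelial gene Cdh5 was at 86 and 113 in Ntn1-KD cells, 2 and 0 in Unc5b-KD cells and 0 and 0 in empty-vector cells, while Pecam1 was at 88 to 107 in all 6 libraries and the 3 other endothelial markers at 0 to 3. The pericyte markers summed to 88 and 95 in Ntn1-KD cells, 73 and 82 in Unc5b-KD cells and 69 and 249 in empty-vector cells, of which Mcam made up 51 and 210 in the controls. The melanocyte and nerve markers summed to 76 and 76 in Ntn1-KD cells, 81 and 79 in Unc5b-KD cells and 42 and 53 in empty-vector cells. The part of these markers in the results was not tested. In bulk samples, fewer cells of a type and less RNA per cell cannot be told apart.

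Promoter sequences are shown for 4 members, chosen after their values were seen. They come from the 6 members called higher and the 5 called lower in both knock-downs by the tests given below. Adamts14 and Ecm1 rose against empty-vector cells, and Adamts1 and Fbn1 fell. Each run is the 250 bases upstream of the start that RefSeq gives on GRCm38.p6, all on the minus strand, printed 5′ to 3′ in the direction of the gene. The windows are chr10:61273420-61273669 for Adamts14, chr3:95739570-95739819 for Ecm1, chr16:85803114-85803363 for Adamts1 and chr2:125506439-125506688 for Fbn1. In the GENCODE annotation the Fbn1 window lies wholly, and the Adamts14 window partly, inside the span of its own gene, which starts farther upstream there than in RefSeq. Capitals mark matches, on either strand, to 5 motifs: AP-1 (TGANTCA), TEAD (CATTCC), the GC box (GGGCGG), the TATA box (TATAAA) and the CCAAT box (CCAAT). Neighbouring matches run together where they touch or overlap.
Adamts14: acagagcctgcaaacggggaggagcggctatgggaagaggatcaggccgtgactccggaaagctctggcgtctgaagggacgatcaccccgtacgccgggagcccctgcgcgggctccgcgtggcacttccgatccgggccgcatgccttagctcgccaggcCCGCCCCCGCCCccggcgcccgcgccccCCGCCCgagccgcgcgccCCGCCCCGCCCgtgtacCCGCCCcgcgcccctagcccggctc
Ecm1: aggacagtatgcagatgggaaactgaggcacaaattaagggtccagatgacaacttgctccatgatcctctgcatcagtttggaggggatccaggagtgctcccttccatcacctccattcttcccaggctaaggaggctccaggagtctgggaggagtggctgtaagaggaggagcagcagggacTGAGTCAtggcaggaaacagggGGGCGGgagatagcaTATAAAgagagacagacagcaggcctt
Adamts1: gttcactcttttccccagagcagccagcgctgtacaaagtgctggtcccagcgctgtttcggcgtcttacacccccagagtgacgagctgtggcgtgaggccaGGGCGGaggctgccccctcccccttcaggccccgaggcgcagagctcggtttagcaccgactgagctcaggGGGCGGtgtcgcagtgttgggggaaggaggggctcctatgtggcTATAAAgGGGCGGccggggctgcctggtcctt
Fbn1: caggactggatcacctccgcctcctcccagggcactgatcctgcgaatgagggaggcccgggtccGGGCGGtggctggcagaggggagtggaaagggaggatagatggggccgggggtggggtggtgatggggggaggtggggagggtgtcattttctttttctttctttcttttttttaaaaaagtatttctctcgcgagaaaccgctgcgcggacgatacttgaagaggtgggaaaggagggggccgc
The Adamts14 window held 6 GC boxes and had a GC content of 76.4%, against a median of 52.4% over the same window in 32851 mouse promoters. Ecm1 held an AP-1 match that begins 64 bases upstream of the start, a GC box at 42 and a TATA box at 27 bases. Adamts1 held 3 GC boxes and a TATA box that begins 32 bases upstream, and Fbn1 held 1 GC box. Of the members, 31 had an entry in the RefSeq promoter table, with 42 start sites among them. The GC box was found in 28 of these 42 windows, against 32.7% of all promoters, the TATA box in 9 (12.4% of all), the CCAAT box in 9 (33.8%), the AP-1 motif in 2, those of Ecm1 and Efemp1 (6.7%), and the TEAD motif in 1, that of Nid1 (12.6%). A match describes these letters only and is not a measured binding site.

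Of the 42 members, 32 had a mean of at least 20 over the 6 libraries and were tested, and 10 did not. Postn was the lowest member inside this limit, with a mean of 26.7, and Aspn the highest outside it, with 17.8. The most abundant members per kb of exon were Spp1, the gene of osteopontin, with a mean level of 22968 per kb over the 6 libraries, Thbs1 (8370 per kb), Igfbp7 (4944 per kb), Fn1 (2858 per kb) and Fbln2 (2678 per kb). Spp1, Thbs1 and Fn1 together made up 52.4% and 54.2% of the summed member values in the Ntn1-KD libraries, 59.6% and 56.2% in Unc5b-KD cells and 59.4% and 61.9% in empty-vector cells. All members together took 0.977% and 0.983% of the library total in Ntn1-KD cells and 1.161% and 0.913% in Unc5b-KD cells. In empty-vector cells the share was 1.052% and 1.272%. Both Ntn1-KD libraries were below both controls, and the Unc5b-KD libraries overlapped both other groups. These shares were not tested.

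**Figure D1:**
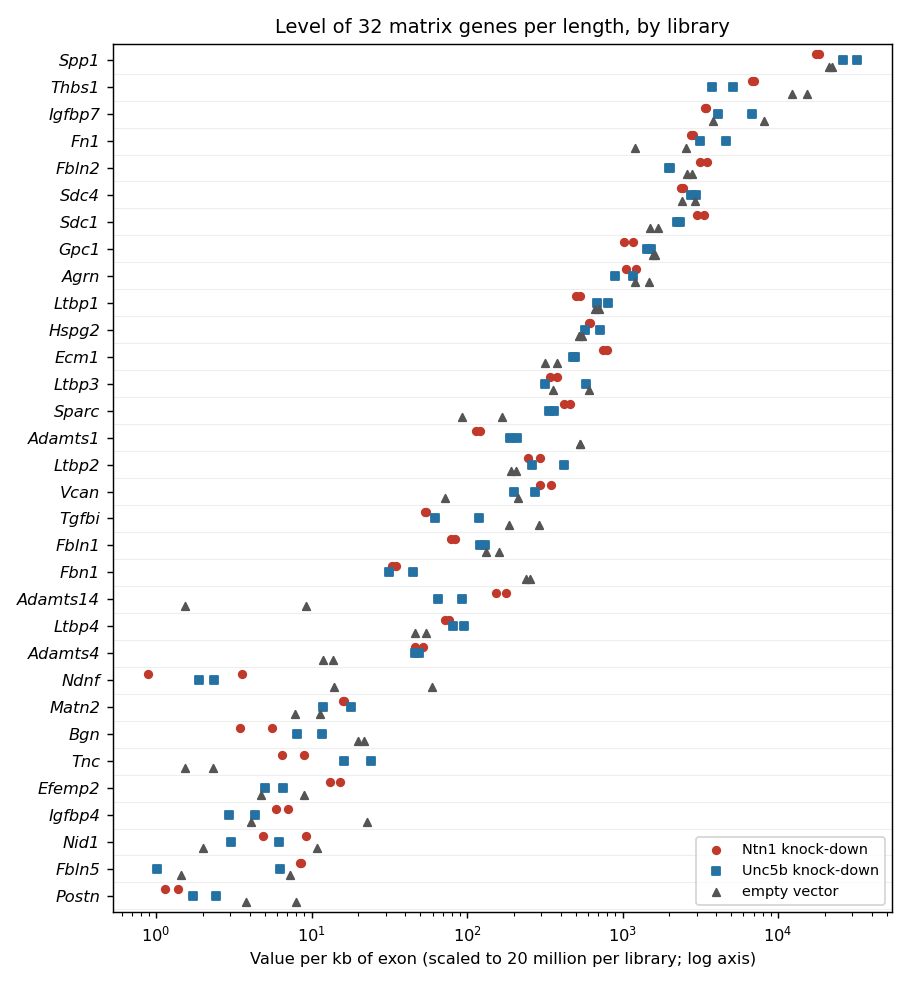
Level of the 32 members that reached the limit, as the value per kb of exon on a log axis, with 2 points for each group and genes ordered by their mean over the 6 libraries. Spp1 and Thbs1 head the order, and Adamts14, Ndnf and Tnc show the libraries of empty-vector cells apart from those of the knock-downs.

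Tests were made with limma on log2(value + 5) over 15330 genes, and a gene was called at an adjusted p under 0.05. Fold values are ratios of group means as deposited, and log2 fold changes carry the 5 that was added and so understate the change of low genes. The members were chosen with earlier results of these data known, so shares called are set beside those of all genes as description only. Comparing Ntn1-KD with empty-vector cells asks what lowering the ligand changed. Here 16 of the 32 members were called (50%), against 15.1% of all genes tested. Of these, 6 were higher (8.04% of all genes were called higher) and 10 lower (7.06% of all genes). Postn, among the lower, reached the filter only through empty-vector cells. Tnc, among the higher in Ntn1-KD and also in Unc5b-KD cells, reached it only through the knock-downs. Comparing Unc5b-KD with empty-vector cells asks what lowering the receptor changed, and here 13 members were called (40.6%), against 12.0% of all genes, with 7 higher (5.90% of all genes) and 6 lower (6.07% of all genes). The median log2 fold change of the 32 members was 0.03 in Ntn1-KD cells, against -0.02 over all genes, and -0.09 in Unc5b-KD cells, against 0.04 over all genes. The groups did not overlap for 15 members higher (28.0% of all genes) and 12 lower (30.2% of all genes) in Ntn1-KD cells, and for 12 higher (28.7% of all genes) and 11 lower (23.2% of all genes) in Unc5b-KD cells, each against empty-vector cells. Both comparisons use the same 2 empty-vector libraries, so their values are set side by side below and are not independent of each other. Each label also went with a shift of the other targeted gene. Unc5b was called higher in Ntn1-KD cells (0.6 ± 0.13, adjusted p = 0.0193). Ntn1 was below the controls in both Unc5b-KD libraries and did not pass (-0.99 ± 0.29, adjusted p = 0.0638). Without Ntn1-KD library 1 or 2, 507 and 563 genes in all were called in the Ntn1 comparison, with 5 members higher and 3 lower in either case. In the Unc5b comparison 680 genes were called without Unc5b-KD library 2 and 950 to 991 without Unc5b-KD library 1 or either Ntn1-KD library. Members called there fell to 3 lower without Unc5b-KD library 2, and to 4 higher without Unc5b-KD library 1 or either Ntn1-KD library.

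**Figure D2:**
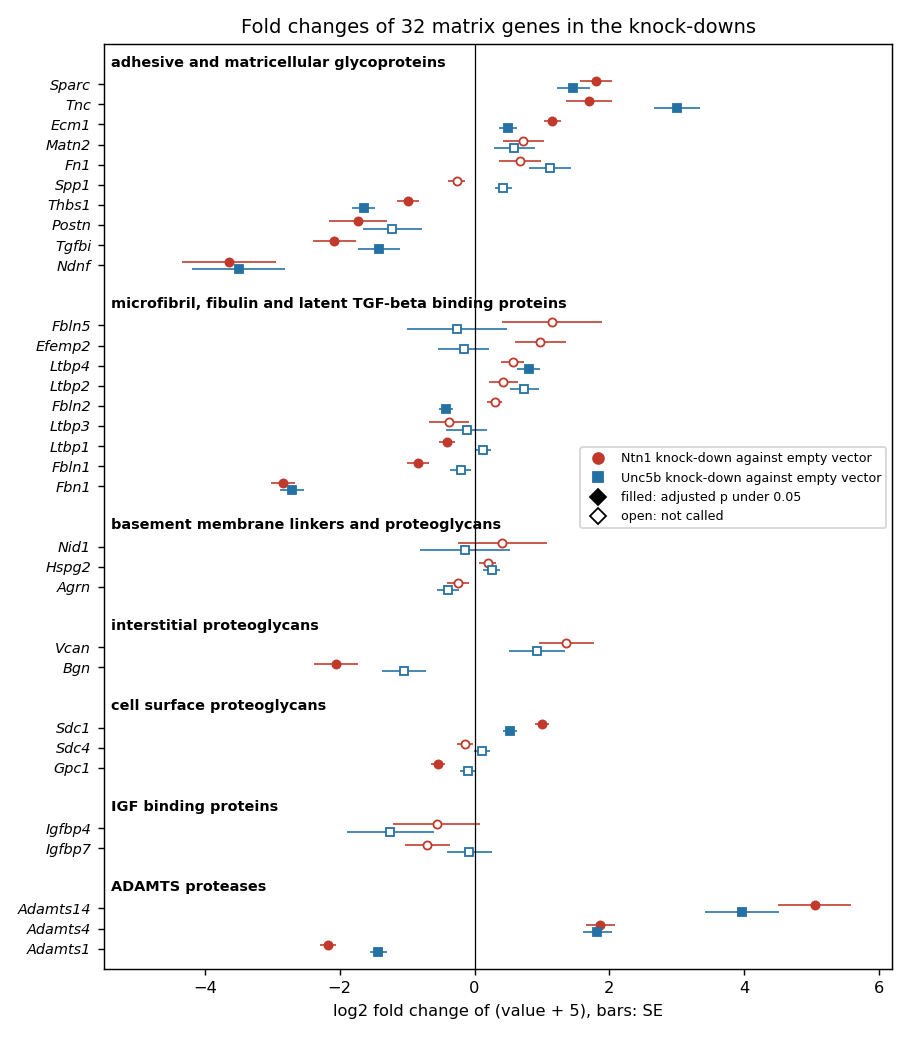
Log2 fold change of (value + 5) with its SE for the 32 members tested, by role, with Ntn1-KD cells as circles and Unc5b-KD cells as squares, each against empty-vector cells. Filled symbols passed at an adjusted p under 0.05. Adamts14 lies farthest to the right, and Ndnf and Fbn1 farthest to the left.

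The ADAMTS proteases changed in opposite directions within the family. Adamts14 (ENSMUSG00000059901; GRCm38 chromosome 10, bases 61197112 to 61273438, minus strand), the procollagen-trimming member, was at 797 and 930 in Ntn1-KD cells, 485 and 340 in Unc5b-KD cells and 8 and 48 in empty-vector cells. Every knock-down library lay above both control libraries, and empty-vector library 1 was close to its floor of 5.9. Adamts14 rose 30.8-fold in Ntn1-KD cells (log2 fold change 5.04 ± 0.55 SE, adjusted p = 0.0009) and 14.7-fold in Unc5b-KD cells (3.97 ± 0.55, adjusted p = 0.00321). Its log2 fold change depended on which empty-vector library was used and ranged over all alternatives from 4.03 to 6.06 in Ntn1-KD cells and from 2.96 to 4.98 in Unc5b-KD cells. Adamts4, an aggrecan-cutting protease, was at 224 and 251 in Ntn1-KD cells, 224 and 236 in Unc5b-KD cells and 57 and 66 in empty-vector cells. The rise was 3.86-fold (1.87 ± 0.21, adjusted p = 0.00106) in Ntn1-KD cells and 3.74-fold (1.82 ± 0.21, adjusted p = 0.00146) in Unc5b-KD cells.

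Adamts1 (GRCm38 chromosome 16, bases 85793827 to 85803113, minus strand), which encodes a versican-cutting protease, ran the other way. It was at 640 and 609 in Ntn1-KD cells, 996 and 1112 in Unc5b-KD cells and 2840 and 2828 in empty-vector cells, with no overlap between any of the groups. It fell 4.54-fold in Ntn1-KD cells (-2.17 ± 0.12, adjusted p = 9.71e-05) and 2.69-fold in Unc5b-KD cells (-1.43 ± 0.12, adjusted p = 0.000439). The calls of Adamts14, Adamts4 and Adamts1 against empty-vector cells held in all 14 alternatives. Per kb of exon, Adamts14 made up 47.6% and 51.2% of the summed level of the 5 ADAMTS members in the Ntn1-KD libraries and 28.4% and 20.1% in Unc5b-KD cells, against 0.3% and 1.7% in empty-vector cells. Adamts1 made up 37.4% and 32.9% in Ntn1-KD cells and 57.3% and 64.6% in Unc5b-KD cells, against 97.5% and 95.7% in empty-vector cells. The summed level per kb was 322.4 and 349.6 in Ntn1-KD cells, 328.1 and 324.9 in Unc5b-KD cells and 549.4 and 557.6 in empty-vector cells, so it was lower in every knock-down library than in the controls. These shares were computed after the values were seen and were not tested. Adamts5 and Adamts9, which also encode versican-cutting proteases, did not reach the mean of 20. Adamts5 ranged from 4 to 24 over the 6 libraries. Adamts9 was at 10 and 21 in Ntn1-KD cells and listed at 0 in both Unc5b-KD and both empty-vector libraries.

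**Figure D3:**
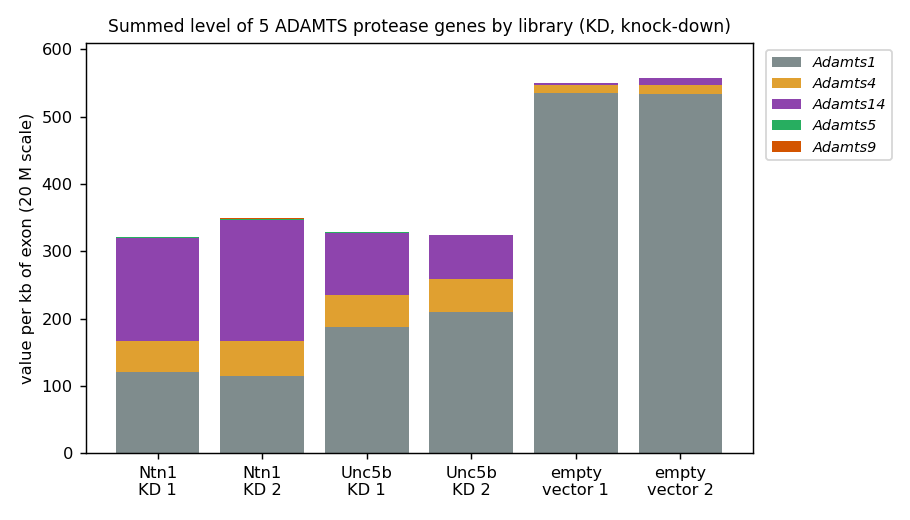
Stacked level per kb of exon of the 5 ADAMTS members in each of the 6 libraries, with bars from 0. Adamts1 fills 97.5% and 95.7% of the bar in the empty-vector libraries and 32.9% to 64.6% in the knock-downs, where Adamts14 and Adamts4 take up nearly all of the rest.

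Among adhesive and matricellular glycoproteins, 3 of 10 tested members were called higher, Tnc included, and 4 lower, Postn included, in Ntn1-KD cells (8.04% and 7.06% of all genes). In Unc5b-KD cells 3 were higher, Tnc included, and 3 lower (5.90% and 6.07%). Tnc, the gene of tenascin-C, a matricellular protein of wounds and tumour stroma (GRCm38 chromosome 4, bases 63959785 to 64047015, minus strand), was at 50 and 70 in Ntn1-KD cells, 126 and 188 in Unc5b-KD cells and 12 and 18 in empty-vector cells. The 3 groups did not overlap, although all values were low. Its mean was at least 20 in both knock-downs and not in empty-vector cells. Tnc thus reached the filter only through the groups where it was high, and its calls are given as values and not as support for a direction. Tnc rose 10.5-fold in Unc5b-KD cells (log2 fold change 3.01 ± 0.34, adjusted p = 0.00136) and 4-fold in Ntn1-KD cells (1.7 ± 0.34, adjusted p = 0.0127). The call in Ntn1-KD cells was lost without Ntn1-KD library 1 (adjusted p = 0.0647) or 2 (0.123), and with no filter on low values (0.0602). Sparc, which encodes a collagen-binding matricellular protein also called osteonectin, was at 1752 and 1602 in Ntn1-KD cells, 1372 and 1274 in Unc5b-KD cells and 354 and 640 in empty-vector cells. It rose 3.37-fold (1.8 ± 0.24, adjusted p = 0.00225) in Ntn1-KD cells and 2.66-fold (1.46 ± 0.24, adjusted p = 0.00702) in Unc5b-KD cells, where the call was lost with no filter on low values (0.0618).

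Ecm1, which encodes extracellular matrix protein 1 of the skin, was at 1883 and 2015 in Ntn1-KD cells, 1214 and 1253 in Unc5b-KD cells and 949 and 800 in empty-vector cells. It rose 2.23-fold in Ntn1-KD cells (1.16 ± 0.13, adjusted p = 0.00108), a call that held in all 14 alternatives. In Unc5b-KD cells it rose 1.41-fold (0.5 ± 0.13, adjusted p = 0.0441), a call kept in 3 of 14 alternatives and lost when any library other than empty-vector library 1 was left out (adjusted p = 0.12 to 0.192). Fn1, the fibronectin gene, did not pass, at 32409 and 33202 in Ntn1-KD cells, 54200 and 36578 in Unc5b-KD cells and 14154 and 29839 in empty-vector cells. Every knock-down library was above both control libraries, which lay 2.11-fold apart. The fold was 1.49 in Ntn1-KD cells (adjusted p = 0.191) and 2.06 in Unc5b-KD cells (0.0548), and Fn1 passed in the Ntn1 comparison (0.0058) and in the Unc5b comparison (0.00183) without empty-vector library 2, and in the Unc5b comparison with upper-quartile scaling (0.0485). Matn2, a matrilin gene of basement membranes, was at 100 and 101, 113 and 74, and 49 and 71 in Ntn1-KD cells, Unc5b-KD cells and empty-vector cells, and did not pass (adjusted p = 0.154 in Ntn1-KD and 0.257 in Unc5b-KD cells).

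Thbs1, the thrombospondin-1 gene (GRCm38 chromosome 2, bases 118111876 to 118127133, plus strand), was the most abundant member of this role that fell. It was at 41076 and 42855 in Ntn1-KD cells, 31064 and 22722 in Unc5b-KD cells and 74400 and 92876 in empty-vector cells, with no overlap between groups, and 3.4% of its exon bases are shared with an antisense gene that had the same order of groups. Thbs1 fell 3.11-fold in Unc5b-KD cells (-1.65 ± 0.17, adjusted p = 0.000885), where the call held in all 14 alternatives. In Ntn1-KD cells it fell 1.99-fold (-0.99 ± 0.17, adjusted p = 0.00671), and the call was lost without Ntn1-KD library 1 (0.083) or 2 (0.0702) and with no filter (0.055). Tgfbi, a TGF-beta-induced adhesion protein gene, was at 202 and 205 in Ntn1-KD cells, 449 and 236 in Unc5b-KD cells and 698 and 1098 in empty-vector cells. It fell 4.41-fold (-2.08 ± 0.31, adjusted p = 0.00383) in Ntn1-KD cells, a call kept in 12 of 14 alternatives. It fell 2.62-fold (-1.41 ± 0.31, adjusted p = 0.0231) in Unc5b-KD cells, a call kept in 6 of 14. The first call was lost without Ntn1-KD library 1 (0.0547) or 2 (0.0506), and the other without either Ntn1-KD library, Unc5b-KD library 2 or empty-vector library 2 (0.0647 to 0.132).

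Ndnf, which encodes a secreted neurotrophic factor with fibronectin type III domains, was at 36 and 9 in Ntn1-KD cells, 24 and 19 in Unc5b-KD cells and 141 and 606 in empty-vector cells. All knock-down libraries were below both controls, which lay 4.3-fold apart. The fall was 16.6-fold (-3.64 ± 0.69, adjusted p = 0.0103) in Ntn1-KD cells and 17.4-fold (-3.5 ± 0.69, adjusted p = 0.0148) in Unc5b-KD cells. The log2 fold change ranged over the alternatives from -4.67 without empty-vector library 1 to -2.61 without library 2 in Ntn1-KD cells, and from -4.53 to -2.47 without the same libraries in Unc5b-KD cells, and Ntn1-KD library 2 was under its floor of 9.17. The calls were lost with no filter (0.0753 and 0.101 in Ntn1-KD and Unc5b-KD cells). The call in Ntn1-KD cells was also lost without Ntn1-KD library 2. The call in Unc5b-KD cells was also lost without Unc5b-KD library 1 or 2, and with no variance trend (0.0597). Postn, the periostin gene, was at 10 and 12 in Ntn1-KD cells, 15 and 21 in Unc5b-KD cells and 33 and 69 in empty-vector cells. It was the 1 tested member with a group mean of at least 20 in empty-vector cells alone, so it reached the filter only through the group where it was high, and its call is given as a value and not as support for a direction. Its fold was 4.64 lower in Ntn1-KD cells (adjusted p = 0.0311). That call was lost with no filter (0.0921) and without either Ntn1-KD library or empty-vector library 2. Postn did not pass in Unc5b-KD cells (adjusted p = 0.112), but did without empty-vector library 1. Spp1 did not pass against empty-vector cells, at 28875 and 30431 in Ntn1-KD cells, 53115 and 43330 in Unc5b-KD cells and 36463 and 34895 in empty-vector cells. Its Ntn1-KD libraries were below and its Unc5b-KD libraries above the controls (adjusted p = 0.192 and 0.0611).

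**Figure D4:**
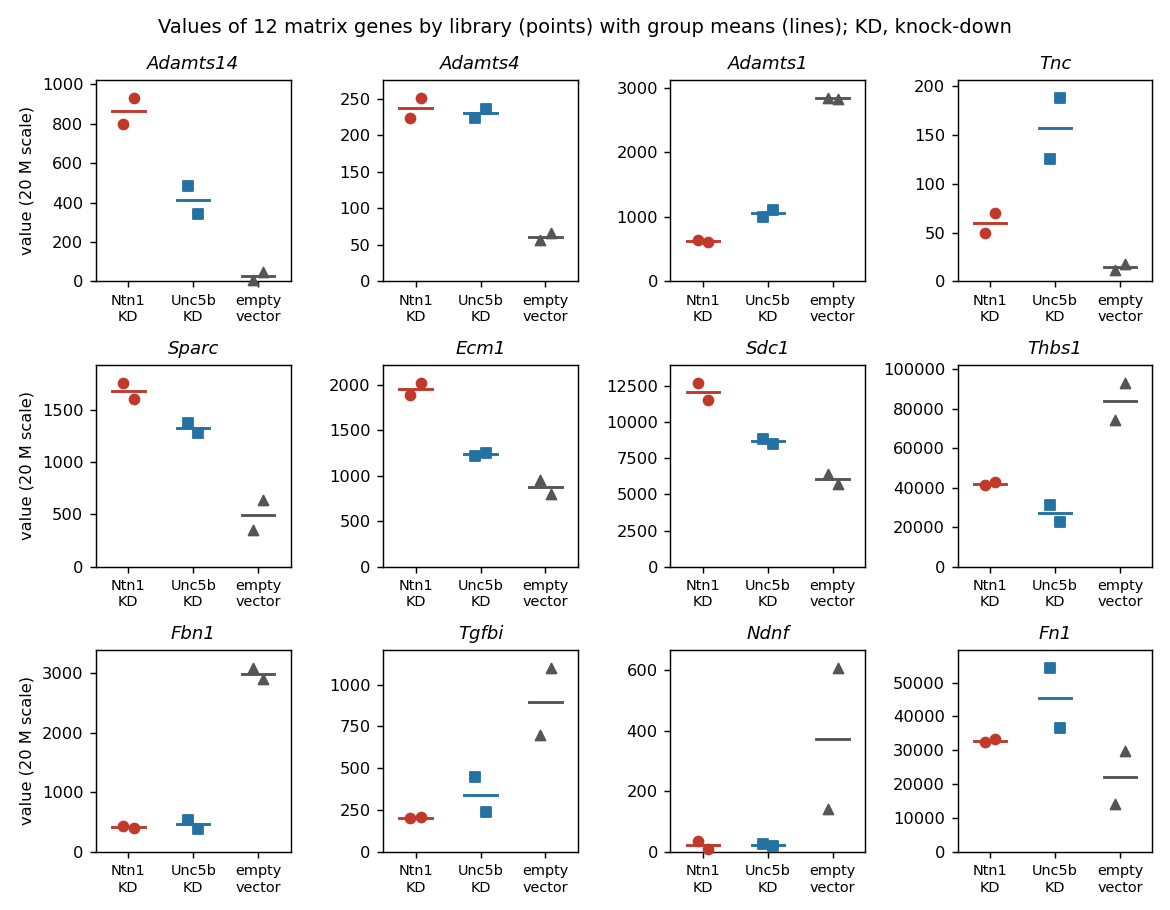
Values of 12 members by library on axes from 0, with points for libraries and lines for group means. Adamts14, Adamts4, Tnc, Sparc, Ecm1 and Sdc1 are higher and Adamts1, Thbs1, Fbn1, Tgfbi and Ndnf lower in all 4 knock-down libraries than in empty-vector cells, and Fn1 has control libraries at 14154 and 29839.

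In the microfibril, fibulin and LTBP role, 0 of 9 tested members rose with limma and 3 fell in Ntn1-KD cells (8.04% and 7.06% of all genes), and 1 rose and 2 fell in Unc5b-KD cells (5.90% and 6.07%). At an unadjusted p under 0.05, 3 of the 9 were higher in Ntn1-KD cells, against 14.8% of all genes. Fbn1, the fibrillin-1 gene (GRCm38 chromosome 2, bases 125300594 to 125507993, minus strand), was at 426 and 401 in Ntn1-KD cells, 541 and 380 in Unc5b-KD cells and 3083 and 2899 in empty-vector cells, and 20.1% of its exon bases are shared with an antisense gene that was also lower in both knock-downs' libraries. It fell 7.23-fold in Ntn1-KD cells (-2.84 ± 0.18, adjusted p = 0.000126) and 6.50-fold in Unc5b-KD cells (-2.71 ± 0.18, adjusted p = 0.000252), and both calls held in all 14 alternatives. Fbln1, the fibulin-1 gene, was at 366 and 342 in Ntn1-KD cells, 530 and 570 in Unc5b-KD cells and 700 and 576 in empty-vector cells. It fell 1.8-fold in Ntn1-KD cells (adjusted p = 0.0107), a call lost without Ntn1-KD library 1 (0.0865) or 2 (0.115), and did not pass in Unc5b-KD cells (0.461). Fbln2, another fibulin gene of elastic fibres and basement membranes, was at 22280 and 20047 in Ntn1-KD cells, 12890 and 12737 in Unc5b-KD cells and 16463 and 17949 in empty-vector cells. Its Ntn1-KD libraries were above and its Unc5b-KD libraries below the controls, and the fall in Unc5b-KD cells (1.34-fold, adjusted p = 0.0375) passed whereas Ntn1-KD cells did not (adjusted p = 0.101). The Fbln2 call was kept in 5 of 14 alternatives and was lost when any library other than empty-vector library 1 was left out.

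The LTBP genes encode proteins that bind latent TGF-beta to microfibrils. Ltbp1 was at 5702 and 5342 in Ntn1-KD cells, 8682 and 7380 in Unc5b-KD cells and 7138 and 7550 in empty-vector cells. It fell 1.33-fold in Ntn1-KD cells (adjusted p = 0.0475), a call kept in 6 of 14 alternatives and lost without either Ntn1-KD library or empty-vector library 2 (0.112 to 0.296), and by median-of-ratios (0.0581) and upper-quartile scaling (0.0676). Ltbp4 was at 466 and 498 in Ntn1-KD cells, 618 and 523 in Unc5b-KD cells and 297 and 352 in empty-vector cells. It rose 1.76-fold in Unc5b-KD cells (adjusted p = 0.0186), a call kept in 7 of 14 alternatives. That call was lost when any 1 of the 4 knock-down libraries was left out. In Ntn1-KD cells Ltbp4 did not pass (0.0573), but did without empty-vector library 2 (0.0478) and with upper-quartile scaling (0.0411). Ltbp2 (2014 and 2397, 3465 and 2149, and 1574 and 1690 in Ntn1-KD cells, Unc5b-KD cells and empty-vector cells) was above the controls in all knock-down libraries and did not pass (adjusted p = 0.211 in Ntn1-KD cells and 0.0557 in Unc5b-KD cells, where it passed without Unc5b-KD library 2, at 0.0169, and with upper-quartile scaling, at 0.0493). Ltbp3 was at 3077 and 3449 in Ntn1-KD cells, 5283 and 2886 in Unc5b-KD cells and 3258 and 5495 in empty-vector cells (adjusted p = 0.445 in Ntn1-KD and 0.852 in Unc5b-KD cells). Fbln5, a fibulin gene needed for elastic fibres, was at 59 and 58, 43 and 7, and 10 and 50 in the same groups (0.344 and 0.866), and Efemp2, the fibulin-4 gene, at 50 and 58, 19 and 25, and 18 and 34 (0.125 and 0.837). Both genes were above the controls in both Ntn1-KD libraries, while Unc5b-KD and control libraries overlapped, and none of these differences passed.

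Of the 3 tested basement membrane genes, 0 passed with limma in either knock-down, and at an unadjusted p under 0.05 1 was lower in Unc5b-KD cells (12.6% of all genes) and 0 were called in Ntn1-KD cells. Hspg2, the perlecan gene, was at 8888 and 8715 in Ntn1-KD cells, 10263 and 8206 in Unc5b-KD cells and 7889 and 7507 in empty-vector cells (log2 fold change 0.19 ± 0.13 and 0.25 ± 0.13, adjusted p = 0.342 and 0.238). Agrn, the agrin gene, was at 9792 and 11299 in Ntn1-KD cells, 10875 and 8285 in Unc5b-KD cells and 11184 and 13829 in empty-vector cells (adjusted p = 0.361 and 0.167). Nid1, a nidogen gene, was at 64 and 34 in Ntn1-KD cells, 43 and 21 in Unc5b-KD cells and 14 and 75 in empty-vector cells, and the groups overlapped.

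Of the interstitial proteoglycans, Vcan and Bgn were tested. Vcan, the versican gene, was at 4986 and 4247 in Ntn1-KD cells, 2920 and 3961 in Unc5b-KD cells and 3070 and 1038 in empty-vector cells. The controls lay 2.96-fold apart, and Vcan did not pass in Ntn1-KD (adjusted p = 0.061) or Unc5b-KD cells (0.195). Without empty-vector library 1 it passed in both (0.00026 and 0.000829). Bgn, the gene of the small leucine-rich proteoglycan biglycan, was at 21 and 34 in Ntn1-KD cells, 71 and 49 in Unc5b-KD cells and 122 and 133 in empty-vector cells, with no overlap between groups. It fell 4.64-fold in Ntn1-KD cells (-2.06 ± 0.33, adjusted p = 0.00473), a call lost without Ntn1-KD library 1 (0.056), and did not pass in Unc5b-KD cells (0.0751).

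Cell surface proteoglycans carry heparan sulphate chains and act as co-receptors. Sdc1, the gene of syndecan-1 and the main syndecan of keratinocytes, was at 12711 and 11543 in Ntn1-KD cells, 8868 and 8531 in Unc5b-KD cells and 6411 and 5700 in empty-vector cells, with no overlap between groups. It rose 2-fold in Ntn1-KD cells (1 ± 0.11, adjusted p = 0.000934), a call that held in all 14 alternatives. In Unc5b-KD cells Sdc1 rose 1.44-fold (0.53 ± 0.11, adjusted p = 0.0186), a call kept in 6 of 14 alternatives. It was lost when any library other than empty-vector library 1 was left out. Gpc1, the glypican-1 gene, was at 6028 and 5250 in Ntn1-KD cells, 7838 and 7440 in Unc5b-KD cells and 8111 and 8291 in empty-vector cells, and shares 18.9% of its exon bases with Ankmy1 on the other strand. It fell 1.45-fold in Ntn1-KD cells (adjusted p = 0.0128) and did not pass in Unc5b-KD cells (0.601). The Ntn1-KD call was lost without Ntn1-KD library 1 or 2, and with no variance trend (0.0716). Sdc4, the syndecan of focal adhesions, was at 6082 and 6226, 7547 and 7074, and 6155 and 7472 in Ntn1-KD cells, Unc5b-KD cells and empty-vector cells, and did not pass (adjusted p = 0.479 and 0.623).

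IGF binding proteins hold insulin-like growth factors outside the cell. Of their genes, Igfbp7 was at 4163 and 4116 in Ntn1-KD cells, 8209 and 4943 in Unc5b-KD cells and 4630 and 9802 in empty-vector cells. Igfbp4 was at 26 and 31, 13 and 19, and 18 and 101 in the same groups. The control libraries lay 2.12-fold apart for Igfbp7 and 5.61-fold for Igfbp4, and neither gene passed in Ntn1-KD (adjusted p = 0.201 for Igfbp7 and 0.603 for Igfbp4) or Unc5b-KD cells (0.907 and 0.257). Without empty-vector library 1, the log2 fold change of Igfbp7 was -1.24 in Ntn1-KD cells. That of Igfbp4 was then -1.67 in Ntn1-KD and -2.35 in Unc5b-KD cells. Empty-vector library 1, at 18, was below both Ntn1-KD libraries for Igfbp4, so the lower direction in Ntn1-KD cells rested on library 2. Igfbp4 reached the filter only through Ntn1-KD and empty-vector cells.

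Set directly against each other, Ntn1-KD and Unc5b-KD cells differed for 7 of the 32 members, against 7.10% of all genes called. Ecm1, Fbln2 and Sdc1 were higher in Ntn1-KD cells (4.15% of all genes were called higher), and Adamts1, Gpc1, Ltbp1 and Spp1 were lower there (2.95% of all genes). The log2 difference, Ntn1-KD minus Unc5b-KD, was 0.72 ± 0.11 for Fbln2 (adjusted p = 0.00785), 0.66 ± 0.13 for Ecm1 (0.0228) and 0.48 ± 0.11 for Sdc1 (0.0385). It was -0.75 ± 0.12 for Adamts1 (adjusted p = 0.0111), -0.69 ± 0.12 for Spp1 (0.0161), -0.54 ± 0.12 for Ltbp1 (0.031) and -0.44 ± 0.11 for Gpc1 (0.0493). All 7 calls were lost without Ntn1-KD library 1 (adjusted p = 0.135 to 0.329 over the 7) or library 2 (0.0909 to 0.368). Without Unc5b-KD library 1, 6 calls were lost, all but that of Adamts1, and without library 2, 6 calls, all but that of Spp1. Over all genes, 34 and 52 were called without Ntn1-KD library 1 or 2, 318 and 330 without Unc5b-KD library 1 or 2, and 1815 and 1842 without empty-vector library 1 or 2. The values of each member in the libraries are given above, and the groups did not overlap for any of the 7. Over all 32 members the groups did not overlap for 10 higher (24.4% of all genes) and 13 lower (31.3% of all genes) in Ntn1-KD cells. Tnc (adjusted p = 0.0579), Thbs1 (0.0548), Fbln1 (0.0541) and Adamts14 (0.291) did not pass here, and all 4 passed when only these 4 libraries were fitted (0.0241, 0.0217, 0.0289 and 0.00858) and when either empty-vector library was left out (0.0128 to 0.0324 over the 4 genes). For Adamts4 (0.04 ± 0.21, adjusted p = 0.933) and Fbn1 (-0.13 ± 0.18, 0.719) no difference between the knock-downs was detectable.

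The 10 members below a mean of 20 were not tested. Dcn and Lum, which encode the small proteoglycans decorin and lumican of fibroblast matrix, Nid2, a nidogen gene, and Fbn2, the fibrillin-2 gene, were at or under the floor of 3 reads in all 6 libraries. Efemp1, a fibulin gene, was at 2 and 0 in Ntn1-KD cells, 2 and 2 in Unc5b-KD cells and 20 and 59 in empty-vector cells, so its knock-down libraries were under the floor. Emilin1, a glycoprotein gene of elastic fibres, was at 2 and 6 in Ntn1-KD cells, 13 and 5 in Unc5b-KD cells and listed at 0 in both empty-vector libraries. Thbs2, the thrombospondin-2 gene, ranged from 2 to 24 and Aspn, the asporin gene, from 9 to 46.

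Related matrix genes outside the 42 were described from lists of genes by role, chosen with earlier results of these data known. Their counts are description only. Of 32 tested genes for glycosaminoglycan synthesis and editing, 10 were higher and 1 lower in Ntn1-KD cells (8.04% and 7.06% of all genes), and 7 were higher and 3 lower in Unc5b-KD cells (5.90% and 6.07%). Chst15, among the higher in both, reached the filter only through Unc5b-KD cells and was at 0 in both empty-vector libraries. Chst11, among the lower in Unc5b-KD cells, reached it only through Ntn1-KD and empty-vector cells. Has2, a hyaluronan synthase gene, was at 1710 and 1425 in Ntn1-KD cells, 1167 and 1086 in Unc5b-KD cells and 173 and 361 in empty-vector cells (log2 fold change 2.62 ± 0.29, adjusted p = 0.00104, and 2.15 ± 0.29, adjusted p = 0.0031). Chst11, a chondroitin sulphotransferase gene, was at 150 and 122 in Ntn1-KD cells, 4 and 5 in Unc5b-KD cells and 75 and 101 in empty-vector cells, and fell in Unc5b-KD cells (-3.28 ± 0.31, adjusted p = 0.000653). Sulf2, which encodes a heparan sulphate 6-O-endosulfatase, fell in Unc5b-KD cells (64 and 74 there, against 291 and 293 in empty-vector cells, adjusted p = 0.000865) and in Ntn1-KD cells (174 and 174, adjusted p = 0.0471).

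Of 14 matrix receptor genes tested, 4 were higher and 2 lower in Ntn1-KD cells (8.04% and 7.06% of all genes), and 3 higher and 1 lower in Unc5b-KD cells (5.90% and 6.07%). Itga5, the subunit of the fibronectin receptor that pairs with beta-1 integrin, was at 2242 and 2137 in Ntn1-KD cells, 1406 and 1299 in Unc5b-KD cells and 574 and 558 in empty-vector cells (1.94 ± 0.12, adjusted p = 0.000125, and 1.25 ± 0.12, adjusted p = 0.000658). Itgb3, an integrin subunit gene for receptors of osteopontin, fibronectin and thrombospondin, was at 221 and 205, 77 and 162, and 6 and 2 in the same groups (4.63 ± 0.4, adjusted p = 0.000369, and 3.74 ± 0.4, adjusted p = 0.0011). It is counted among the higher in both comparisons. Itgb3 reached the filter only through the knock-downs, where it was high, so its calls are given as values and not as support for a direction. Itga8, an integrin subunit gene, was lower in Ntn1-KD cells (29 and 40, against 204 and 199 in empty-vector cells, adjusted p = 0.00964).

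In this and the following lists, the shares of all genes are again 8.04% higher and 7.06% lower in Ntn1-KD cells and 5.90% higher and 6.07% lower in Unc5b-KD cells. Of 11 other proteoglycan genes tested, 3 were higher and 1 lower in Ntn1-KD cells, and 4 higher and 2 lower in Unc5b-KD cells. Gpc2, among the higher in Unc5b-KD cells, reached the filter only through the knock-downs. Sdc3, a syndecan gene, was at 613 and 529 in Ntn1-KD cells, 395 and 454 in Unc5b-KD cells and 175 and 114 in empty-vector cells (1.97 ± 0.23, adjusted p = 0.00112, and 1.55 ± 0.23, adjusted p = 0.00419). Sdc2, another syndecan gene, was at 751 and 786, 267 and 190, and 1366 and 3366 in the same groups and fell in Unc5b-KD cells (-3.22 ± 0.36, adjusted p = 0.00134) and Ntn1-KD cells (-1.48 ± 0.36, adjusted p = 0.0292). Gpc4, a glypican gene, was at 473 and 459 in Ntn1-KD cells, 64 and 79 in Unc5b-KD cells and 28 and 87 in empty-vector cells, and was called higher in Ntn1-KD cells than in empty-vector cells (3.1 ± 0.43, adjusted p = 0.00259). Of 19 other matrix glycoprotein genes tested, 2 were higher and 7 lower in Ntn1-KD cells and 2 higher and 4 lower in Unc5b-KD cells. Hmcn2, among the higher in both, reached the filter only through the knock-downs. Tnxb, among the lower in Ntn1-KD cells, reached it only through empty-vector cells. Pcolce, which encodes an enhancer of procollagen C-proteinase, was at 1274 and 1293 in Ntn1-KD cells, 4099 and 2346 in Unc5b-KD cells and 4699 and 6389 in empty-vector cells, and fell in Ntn1-KD cells (-2.09 ± 0.25, adjusted p = 0.00128). Of 4 other ADAMTS genes tested, Adamts7 was higher in Ntn1-KD cells (347 and 294, against 81 and 87 in empty-vector cells, adjusted p = 0.00182), and 0 were called by limma in Unc5b-KD cells (1 higher at an unadjusted p under 0.05, against 14.3% of all genes). Of 4 ADAMTS-like genes tested, 1 was higher (Adamtsl4) and 1 lower (Thsd4) in Ntn1-KD cells, and 0 higher and 1 lower (Thsd4) in Unc5b-KD cells, where 1 was higher and 2 lower at an unadjusted p under 0.05. Thsd4 was at 7 and 3 in Ntn1-KD cells, 4 and 5 in Unc5b-KD cells and 39 and 96 in empty-vector cells, so its knock-down libraries were under the floor of 3 reads and it reached the filter only through empty-vector cells. The 1 other IGF binding protein gene tested was called in neither knock-down.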

How the data were processed

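The unit is a score: the table as deposited by the authors lists 1 whole number per gene and library and every column adds up to 20000000, so the numbers were scaled and rounded before deposit. STAR, Picard and HTSeq are named without versions, with the builds GRCm38 and mm10, per the submitters' processing notes. For counting, strand and scaling, no settings were given in the sources used here. Gene positions and exon lengths came from GENCODE M21 of GRCm38, which holds 49326 of the 49671 identifiers. Exons of 18 members overlap those of another annotated gene. For Spp1 and Ecm1 that gene is on the same strand, so strand would not separate the reads. For the others it is on the other strand, and without a strand setting the reads cannot be told apart. Depth was estimated from the spacing of values up to 150, and the floor of 3 reads covers counting error only. limma 3.58.1 (R 4.3.3) was run on all 6 libraries with a mean for each of the 3 groups, on log2(value + 5), over genes with a mean of at least 20, with a variance trend and Benjamini-Hochberg adjustment. Tests were 2-sided, and the steps were tested on simulated data. The fit had 3 residual and 5.33 prior degrees of freedom. The replicate numbers were not used as a block. The alternatives were other pseudocounts, no filter, other scalings, no trend, only the groups compared, the replicate number as a block, and each library left out. All 42 members are accounted for, and of each related list at most the 3 called genes with the largest change per direction and comparison could be named. The members and lists were chosen with earlier results of these data known, so no list carries a test of its own. With 2 libraries a group, exact permutation of labels cannot reach the threshold and was not used.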

Additional observations from a re-analysis of the deposited data

How the results depend on the processing

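Over the 14 alternatives, 1344 values of members were recomputed. Of these, 1193 kept their direction or stayed uncalled, 122 lost and 29 gained a call, and 0 called values changed sign. Another 21 values changed sign, each uncalled both in the main fit and in the alternative concerned. Calls kept under every alternative numbered 7 of 16 in Ntn1-KD cells, 6 of 13 in Unc5b-KD cells and 0 of 7 between the knock-downs. With no filter on low values, 1289, 791 and 302 genes in all were called in Ntn1-KD cells, Unc5b-KD cells and between them, with 3 members higher and 3 lower in Unc5b-KD cells and 0 higher and 1 lower between the knock-downs. Without the variance trend the totals were 1462, 1115 and 454, with 3 members lower in Unc5b-KD cells and 0 higher and 0 lower between the knock-downs with limma, where 5 and 7 had an unadjusted p under 0.05 in either of these settings. With only the groups compared, 950 genes were called in Unc5b-KD cells and 1856 between the knock-downs, with 4 members higher in Unc5b-KD cells and 5 higher between the knock-downs.

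With 1 library left out, the remaining one of its group takes its spread from the rest. Genes called then ranged from 507 to 2769 in Ntn1-KD cells, 680 to 2428 in Unc5b-KD cells and 34 to 1842 between them. Members called higher ranged from 5 to 8, 4 to 8 and 0 to 5, and members called lower from 3 to 12, 3 to 8 and 0 to 6, in the same order.

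With the replicate block, 1465, 1102 and 459 genes were called, and between the knock-downs 1 member was higher and 2 were lower, against 3 and 4 without it. The numbers share no stated origin, and with 2 pairs they do not pair the libraries. The deviations of same-numbered libraries correlated at 0.16 for Ntn1-KD cells with empty-vector cells, -0.45 for Unc5b-KD cells with empty-vector cells and -0.17 between the knock-downs. The part of depth in the low values of the 10 members below a mean of 20 was not tested. The causes of lost calls were not tested either.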

Other observations

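Genes that overlap a member's exons moved alongside it in several cases. Gm29233, on the other strand of Thbs1 with 208 shared exon bases, was at 3101 and 3312 in Ntn1-KD cells, 2300 and 1614 in Unc5b-KD cells and 5851 and 7059 in empty-vector cells. Gm9913, on the other strand of Fbn1 with 2442 shared bases, or 20.1% of the Fbn1 exons, was at 7 and 21, 6 and 9, and 83 and 105 in the same groups. Ankmy1, on the other strand of Gpc1 with 977 shared bases, was at 635 and 590, 1043 and 915, and 792 and 1066. The part of shared reads in the members' values was not tested. Adamts14, Adamts1, Sdc1 and Sparc overlap no other annotated exon.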
